A study of Mus musculus with 9 samples.

Results

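The data describe whole skin of L84, 1 of 3 mouse lines studied for an active form of the kinase Akt, set against skin of the controls, LC. Members were chosen by array title: 2 arrays of L84 and 3 of LC, 5 of the 9 arrays of the study. The other 4 arrays, 2 of the line L60 and 2 of the line LA, entered the statistical fit to help estimate the spread, and they serve as a comparison at the end. L84 is a transgenic line and LC its control, both of mixed C57BL/DBA/FVB background and 30 days old, and each array was given RNA pooled from mice of 1 genotype, extracted from 30 mg of skin. The promoter of the transgene, the exact form of Akt it carries and the number of mice per pool are not given in the sources used here. Every p-value below therefore measures the spread between pools, which may be partly technical. The title of the study names defects of ectodermal organs and a weakened bone morphogenetic protein (BMP) signal, so the comparison asks which genes differ in skin that carries the transgene.

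Akt passes on signals from growth factor receptors through PI3K, and it holds FOXO transcription factors out of the nucleus. In the hair follicle, BMP signals act in the precursor cells above the dermal papilla, where transcription factors such as Msx2, Foxn1 and Hoxc13 turn on the keratins of the hair shaft. Shaft keratins, their cross-linking partners and the genes of the inner root sheath are made while a follicle is in its growth phase.

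Values are scores, not expression levels. Each probe set had been scaled to mean 0 and SD 1 over the 9 arrays, a gene with several probe sets of its own was given their mean score, and a difference is counted in these SDs. Such a mean was not rescaled, so its own SD can be under 1 and its differences smaller. A score carries no level and no fold: wide differences can stand for small folds, scores of different genes cannot be ranked by abundance, and markers of skin cannot be checked for absence. A gene was called at an adjusted p under 0.05 in limma's linear model without variance moderation, with Benjamini-Hochberg adjustment over 12393 genes.

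The promoters of several hair genes that were called lower in L84, and of Krt5, called higher, are shown because the hair genes moved together. Each line gives the 150 bases before the first RefSeq start of the gene (build GRCm38.p6), from Krt34 and Krt31 (hair shaft keratins), Krt25 (an inner root sheath keratin), Tchh (trichohyalin) and Krt5 (the keratin of basal epidermis). Capitals mark the TATA box letters TATAAA and the LEF1 and TCF letters CTTTGAA, searched on both strands, as was the FOXO core TGTTTAC.
Krt34: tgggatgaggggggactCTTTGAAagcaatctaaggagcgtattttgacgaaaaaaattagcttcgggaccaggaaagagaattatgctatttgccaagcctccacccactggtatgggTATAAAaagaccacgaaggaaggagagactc
Krt31: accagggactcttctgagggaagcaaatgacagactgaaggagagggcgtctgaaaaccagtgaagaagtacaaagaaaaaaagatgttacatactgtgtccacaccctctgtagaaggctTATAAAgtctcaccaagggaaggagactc
Krt25: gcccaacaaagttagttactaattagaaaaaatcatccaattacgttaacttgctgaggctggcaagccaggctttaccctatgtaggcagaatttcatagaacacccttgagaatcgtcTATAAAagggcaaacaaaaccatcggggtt
Tchh: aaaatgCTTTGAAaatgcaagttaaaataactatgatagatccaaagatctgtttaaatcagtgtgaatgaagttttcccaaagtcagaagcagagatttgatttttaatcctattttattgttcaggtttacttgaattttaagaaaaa
Krt5: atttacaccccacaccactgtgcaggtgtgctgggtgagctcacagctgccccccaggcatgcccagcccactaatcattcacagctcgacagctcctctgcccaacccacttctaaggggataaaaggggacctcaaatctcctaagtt
In that order they lie at chr11:100041555-100041704 (minus strand), chr11:100050552-100050701 (minus strand), chr11:99322952-99323101 (minus strand), chr3:93442180-93442329 (plus strand) and chr15:101712906-101713055 (minus strand). TATAAA stands 31, 29 and 30 bases before the start of Krt34, Krt31 and Krt25. CTTTGAA stands 133 bases before the start of Krt34 and 144 bases before that of Tchh. Of 39 genes called lower with a promoter in the table, 15 (38.5%) held the TATA letters, as did 1 of 19 genes called higher (5.26%) and 581 of 9887 measured genes (5.88%). The LEF1 and TCF letters were in 2 of 39 (5.13%), 0 of 19 and 173 of 9887 (1.75%), and the FOXO core in 0 of 39, 0 of 19 and 112 of 9887 (1.13%). Over all 27025 promoters in the table the shares were 8.08%, 2.49% and 1.74%. Only exact letters were searched, so a near match such as gataaa in Krt5 is not marked. The lower calls hold many related keratin and Krtap genes, so their promoters may not be independent. A match is a description of letters, not a binding site.

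Some arrays stood apart. Probe sets for 18S ribosomal RNA averaged 0.339 on L84 1 and 1.13 on LC 1, and -0.628 to -0.528 on L84 2, LC 2 and LC 3. The scores of L84 1 were more widely spread (SD 1.2) than those of L84 2 (0.907) and of the LC arrays (0.764 to 0.786). Xist, the RNA of the inactive X chromosome, scored -1.06 and 0.904 in L84, against -0.915, 0.604 and 0.632 in LC, so the arrays numbered 1 were low in both groups. Values of the gene lists are given for each array for this reason, and the part of RNA quality or of the sexes in a pool was not tested.

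Skin of L84 differed from LC in 70 of 12393 genes (0.565%), 20 of them higher (0.161%) and 50 lower (0.403%). Of the 50 lower genes, 23 belong to the hair shaft keratins, the keratin-associated proteins or the inner root sheath, medulla and cuticle. The higher genes include the basal and bulge keratins Krt5 and Krt15, the MHC class I chain H2-K1 and its partner B2m, and the alarm cytokine Il33. For all 70 genes the L84 arrays lay entirely above or entirely below the LC arrays, which was so for 28.5% of all genes, 13.8% with L84 higher and 14.7% with L84 lower. The test favours genes whose groups lie apart, so that is a description. The median difference over all genes was 0.00308, with 50.1% above 0 and 49.9% below.

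The number of calls rested on single arrays. The direction of the 70 genes did not change under any of 17 alternatives, but this is no check of the calls. Where groups do not overlap, leaving out arrays cannot turn a sign, and several alternatives leave the difference as it was. Leaving out LC 2 gave 5 calls, LC 3 gave 19 and LC 1 gave 50. Not all calls of such fits were among the 70: without LC 1, 37 of the 50 were, and without LC 3, 16 of the 19. Most of the calls without L84 2 were not. Leaving out L84 1 gave 31, and L84 2 gave 129. Removal of either LA array gave 28, and of either L60 array 40. The lone array left in such a line adds nothing to the spread, so both fits of a line are the same here. Counts out of 9 fits include these repeats. S100a3, Krt34, Krt33a, Krt25 and Nt5c2 were called in all 9 fits that each left out 1 array, and they are the 5 calls without LC 2. With limma's moderated variance 0 genes passed (1559 had an unadjusted p under 0.05, against 1513 without moderation).

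**Figure D1:**
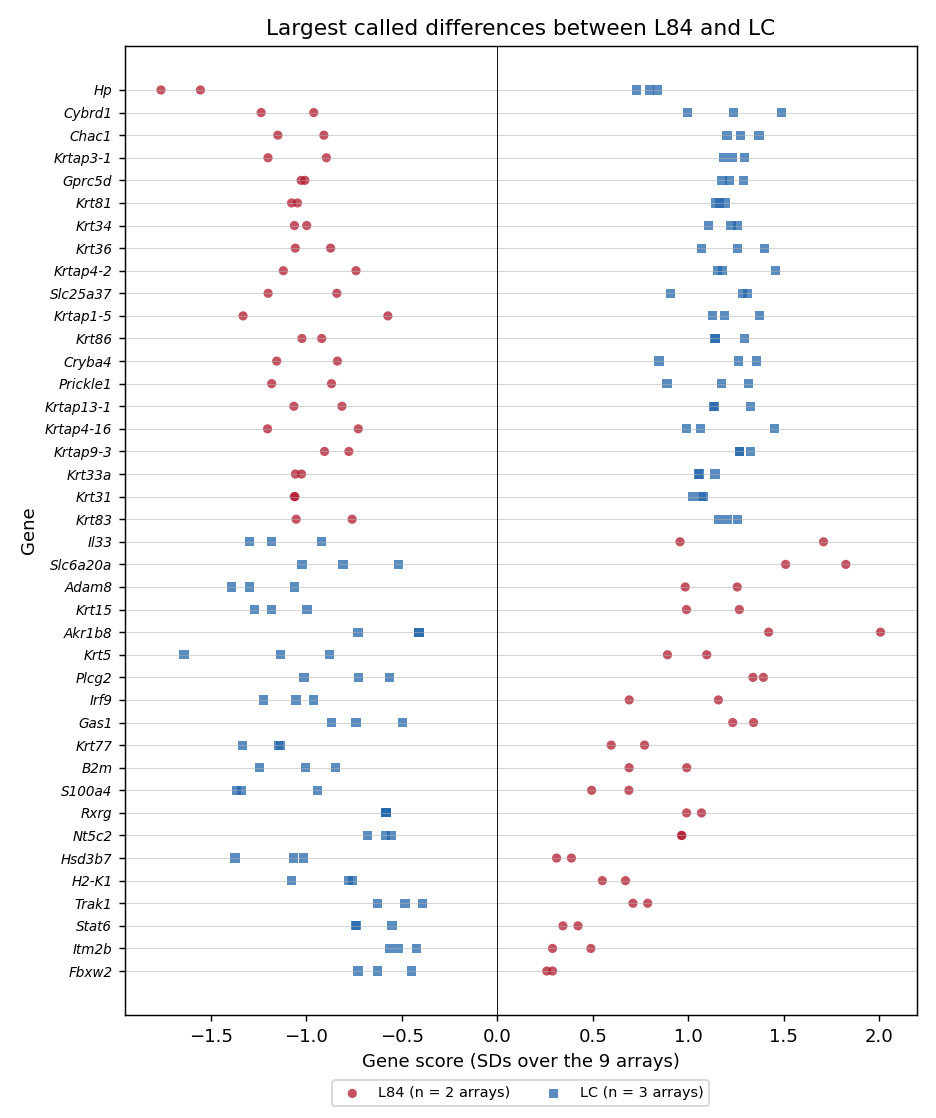
Gene scores (horizontal axis, SDs over the 9 arrays) of the 20 genes with the largest falls (top) and of the 20 genes that rose, with each L84 array as a circle and each LC array as a square. The falls hold all L84 circles below 0 and all LC squares above 0, and the rises the reverse.

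Hair shaft keratins, the filaments that fill the hair fibre, were low on both L84 arrays. The mean score of the 12 measured keratins was -0.896 and -0.915 on the L84 arrays, against 1.25, 1.04 and 1.09 on the LC arrays. All 12 had arrays without overlap, and the median difference was -2.12, against 0.00308 over all genes. The 9 that fell were Krt81, Krt34, Krt36, Krt86, Krt33a, Krt31, Krt83, Krt33b and Krt35. In bulk skin, fewer hair-forming cells and less RNA in each of them cannot be told apart.

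Krt34, a type I keratin of the shaft cortex, scored -0.999 and -1.06 in L84, against 1.26, 1.22 and 1.11 in LC, a difference of -2.23 ± 0.0528 (SE, adjusted p = 0.000718). Krt33a, its neighbour in the type I cluster, scored -1.03 and -1.06 in L84, against 1.14, 1.06 and 1.05 in LC, a difference of -2.13 ± 0.0582 (SE, adjusted p = 0.000718). Krt31 scored -1.06 and -1.06 in L84, against 1.08, 1.02 and 1.07 in LC, a difference of -2.12 ± 0.0866 (SE, adjusted p = 0.00388). In these 3 genes the arrays of each group lay close together, and the groups were separated by far more than the spread within either.

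Krt35, which appears early in the shaft, scored -1.13 and -0.868 in L84, against 0.911, 0.986 and 0.91 in LC, a difference of -1.93 ± 0.0855 (SE, adjusted p = 0.00388). Krt86, a type II partner, scored -1.02 and -0.92 in L84, against 1.29, 1.15 and 1.14 in LC, a difference of -2.17 ± 0.0897 (SE, adjusted p = 0.00388). Krt36 scored -0.873 and -1.06 in L84, against 1.4, 1.07 and 1.26 in LC, a difference of -2.21 ± 0.132 (SE, adjusted p = 0.00904). Krt81 scored -1.08 and -1.05 in L84, against 1.16, 1.15 and 1.2 in LC (adjusted p = 0.0168), and in each of these genes both L84 arrays were below 0 and all LC arrays above it. Krt83 and Krt33b differed less evenly, with L84 1 below L84 2: Krt83 scored -1.05 and -0.761 in L84, against 1.21, 1.16 and 1.26 in LC, and Krt33b scored -1.15 and -0.722 in L84, against 1.2, 1.04 and 1.11 in LC, with adjusted p = 0.0344 and 0.0161. The 9 calls of the list numbered 2 without LC 2, 5 without LC 3. Shaft keratins are close in sequence and the probe sets may share targets, so they are not independent of each other.

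Keratin-associated proteins, cysteine-rich or glycine-rich proteins that cross-link the filaments, had mean scores over 26 genes of -0.969 and -0.642 on the L84 arrays, against 1.54, 0.937 and 0.954 on the LC arrays. Arrays did not overlap for 25 of the 26, all lower, and the median difference was -2.04. The 7 that fell were Krtap3-1, Krtap4-2, Krtap1-5, Krtap13-1, Krtap4-16, Krtap9-3 and Krtap8-1. LC 1 stood above LC 2 and LC 3 in this list, and L84 1 below L84 2, so the spread was wider than among the keratins.

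Krtap9-3 scored -0.905 and -0.778 in L84, against 1.27, 1.33 and 1.27 in LC, a difference of -2.13 ± 0.0949 (SE, adjusted p = 0.00388). Krtap3-1 scored -1.2 and -0.895 in L84, against 1.3, 1.23 and 1.19 in LC, a difference of -2.29 ± 0.114 (SE, adjusted p = 0.00558). Krtap13-1 scored -1.07 and -0.814 in L84, against 1.33, 1.14 and 1.13 in LC, a difference of -2.14 ± 0.119 (SE, adjusted p = 0.00806). In Krtap4-2, Krtap4-16 and Krtap1-5 the L84 arrays lay further apart. Krtap1-5 was the widest of them, at -1.33 and -0.573 in L84, against 1.37, 1.19 and 1.13 in LC (adjusted p = 0.0485). Krtap8-1, of the glycine-tyrosine-rich kind, scored -1.03 and -1.01 in L84, against 1.1, 1.08 and 1.07 in LC, a difference of -2.11 ± 0.163 (SE, adjusted p = 0.0188), with its arrays close together in both groups. The 7 calls numbered 0 without LC 2, 2 without LC 3, 3 without LC 1, L84 1, LA 1 or LA 2. Members of this family share near-identical stretches, and their probe sets may not tell them apart.

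Genes of the inner root sheath, which moulds the growing shaft, and of the cuticle and medulla were also low on both L84 arrays. Over 10 genes the mean score was -0.834 and -0.997 on the L84 arrays, against 0.64, 1.06 and 1.07 on the LC arrays, with a median difference of -1.98 and 9 genes without overlap, all lower. Gprc5d, Padi3, S100a3, Tchh, Krt71, Krt25 and Krt27 fell. S100a3, which binds calcium and is found in the cuticle of hair, had the smallest SE among the lower calls: it scored -0.994 and -1.03 in L84, against 0.971, 0.973 and 0.983 in LC, a difference of -1.99 ± 0.0416 (SE, adjusted p = 0.000718).

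Krt25, a type I keratin of the inner root sheath, scored -1.11 and -0.981 in L84, against 0.855, 0.937 and 0.888 in LC, a difference of -1.94 ± 0.0525 (SE, adjusted p = 0.000718). Krt27, of the same layer, scored -1.05 and -0.939 in L84, against 0.687, 1.04 and 0.968 in LC, and Krt71, their type II partner, -1.11 and -0.981 in L84, against 0.711, 1.02 and 0.961 in LC. Tchh scored -1.01 and -1.06 in L84, against 0.95, 1 and 0.872 in LC, a difference of -1.97 ± 0.0875 (SE, adjusted p = 0.00388). Padi3, the enzyme that citrullinates trichohyalin, scored -1.09 and -0.997 in L84, against 0.715, 1.13 and 1.07 in LC (adjusted p = 0.0156). Gprc5d, an orphan receptor found in hair-forming cells, scored -1.01 and -1.03 in L84, against 1.18, 1.22 and 1.29 in LC (adjusted p = 0.00558). In each of these genes both L84 arrays were low and all LC arrays high, and for Krt27, Krt71 and Padi3 LC 1 was the lowest of the controls. The 7 calls numbered 2 without LC 2, 3 without L84 1, 4 without LC 3.

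Transcription factors that direct hair differentiation followed in the same direction. Of 21 hair matrix regulators 4 fell (Dlx2, Hoxc13, Msx2 and Elf5) and 0 rose, 15 had L84 arrays below all LC arrays, and the median difference was -1.65. List means were -0.484 and -0.786 on the L84 arrays, against 0.266, 0.792 and 0.976 on the LC arrays. Dlx2, a homeobox factor, scored -1.04 and -0.908 in L84, against 1.17, 1.22 and 0.998 in LC, a difference of -2.1 ± 0.173 (SE, adjusted p = 0.0227). Hoxc13, whose loss in mice gives brittle hair, scored -0.743 and -1.12 in L84, against 0.718, 1.07 and 1.08 in LC, a difference of -1.88 ± 0.17 (SE, adjusted p = 0.0291).

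Msx2, a homeobox factor downstream of BMP, scored -1.08 and -0.736 in L84, against 0.615, 1.07 and 1.15 in LC, a difference of -1.85 ± 0.204 (SE, adjusted p = 0.0487). Elf5, an ETS factor of keratinocytes, scored -0.18 and -0.681 in L84, against 1.18, 1.12 and 1.37 in LC (adjusted p = 0.0386). Both L84 arrays were below the LC arrays for each of the 4 factors, with LC 1 lower than the other controls for Hoxc13 and Msx2. Foxn1, the factor lost in nude mice, was not called: it scored -0.946 and -1.09 in L84, against 1.26, 0.737 and 1.72 in LC, a difference of -2.26 ± 0.307 (SE, adjusted p = 0.0856). Lef1, which carries Wnt signals to the shaft genes, scored -1.33 and -0.622 in L84, against 0.249, 1.13 and 1.27 in LC (adjusted p = 0.195). The arrays of these genes did not overlap either, but the LC arrays of Foxn1 and the L84 arrays of Lef1 were spread widely. The 4 calls numbered 0 without LC 2, LC 3, L60 1, L60 2, LA 1 or LA 2, 1 without L84 1 or L84 2, 2 without LC 1.

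Among 17 genes that respond to BMP signals, 4 fell, Dlx2, Smad6, Bambi and Msx2, the first and last of which also belong to the hair list. Arrays did not overlap for 9 lower and 3 higher genes, the median difference was -1.43, and list means were -0.285 and -0.415 on the L84 arrays, against 0.244, 0.422 and 0.546 on the LC arrays. Bambi, a decoy receptor induced by BMP, scored -0.936 and -0.966 in L84, against 0.956, 1.13 and 0.958 in LC, a difference of -1.96 ± 0.107 (SE, adjusted p = 0.00797). Smad6, an inhibitory Smad, scored -0.76 and -0.773 in L84, against 0.901, 1.16 and 1.59 in LC, a difference of -1.98 ± 0.203 (SE, adjusted p = 0.0398). The L84 arrays of Smad6 nearly coincided, while its LC arrays were spread.

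The Id genes, direct BMP targets that restrain differentiation, were not called. Id3 scored -1.07 and -0.891 in L84, against 0.204, 0.606 and 0.814 in LC (adjusted p = 0.172), and Id4 scored -0.116 and -1.23 in L84, against 0.882, 0.766 and 0.634 in LC (adjusted p = 0.326), without overlap in either. Id1 scored 0.144 and -0.113 in L84, against -0.187, 1.02 and 0.906 in LC (adjusted p = 0.799). Id2 scored 0.984 and -0.638 in L84, against -0.0266, 0.507 and 0.455 in LC (adjusted p = 0.967), with L84 1 above all controls and L84 2 below them, and its 3 probe sets differed in sign. The 4 calls of the BMP response list numbered 0 without LC 2 or L84 1, 1 without LC 3, L60 1, L60 2, L84 2, LA 1 or LA 2.

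Of 24 BMP ligands, receptors, Smads and antagonists 0 were called in limma's test (5 at an unadjusted p under 0.05, and likewise "unadjusted" for other lists without a call), with a median difference of 0.109 and 4 lower and 5 higher genes without overlap. Over all genes 1513 of 12393 had such an unadjusted p, and several of these lists are near or below that share. Bmp4, a ligand made by the dermal papilla and the matrix, scored -2.03 and -0.959 in L84, against 0.187, 0.884 and 0.858 in LC, a difference of -2.14 ± 0.403 (SE, adjusted p = 0.162). Its antagonist Grem1 scored 0.681 and 1.13 in L84, against -0.635, -1.25 and -1.45 in LC (adjusted p = 0.274), and Fst, which binds activins and BMPs, scored 2.16 and 0.44 in L84, against 0.328, -1.27 and -1.06 in LC (adjusted p = 0.389). The ligand and these antagonists lay on opposite sides of the controls, none of them past the threshold. Bmp2 scored 2.26 and -0.662 in L84, against 0.716, 0.108 and 0.031 in LC, Bmp7 -0.0741 and -0.958 in L84, against -0.818, 1.34 and 1.42 in LC and the antagonist Nog -0.877 and -0.0896 in L84, against -1.22, -0.432 and 0.548 in LC, all with overlapping groups.

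Akt itself was examined because the line carries an active form of it. Akt1 scored 1.31 and 0.827 in L84, against -0.457, -0.0573 and 0.0461 in LC, a difference of 1.22 ± 0.594 (SE, adjusted p = 0.51), without overlap. Its 2 probe sets differed from LC by 2.2 and 0.245, and only the first had arrays without overlap. A probe set may lie outside the part of the transcript that a transgene carries and then says nothing of it. Akt2 scored -1.05 and -0.481 in L84, against -0.647, 1.06 and 0.658 in LC (adjusted p = 0.565), with overlapping arrays.

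Of 21 Akt and PI3K pathway genes 0 were called (2 unadjusted), with a median difference of 0.0232 and 4 higher and 1 lower gene without overlap. Pik3r1, the regulatory subunit p85, scored 1.94 and 1.04 in L84, against -1.14, -0.655 and -0.327 in LC, a difference of 2.2 ± 0.436 (SE, adjusted p = 0.169). Pik3r2, another such subunit, scored 2.37 and -0.0994 in L84, against -0.714, -1.17 and -0.36 in LC (adjusted p = 0.426), and the catalytic subunit gene Pik3cg scored 0.519 and 0.745 in L84, against -0.418, -0.892 and -1.13 in LC (adjusted p = 0.336). All 3 lay above the controls on both L84 arrays, with L84 1 far above L84 2 in Pik3r2.

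FOXO factors and their targets showed 0 calls in 20 genes (5 unadjusted), a median difference of 0.00789 and 4 higher and 5 lower genes without overlap. Foxo1 scored 0.389 and -1.03 in L84, against -0.142, 0.574 and 0.774 in LC and Foxo3 0.0474 and -0.0385 in L84, against 0.53, -0.0416 and -0.134 in LC, with overlap in both. The target Pdk4, a brake on glucose oxidation, scored -1.82 and -0.199 in L84, against 0.928, 0.438 and 0.482 in LC (adjusted p = 0.32), and the repressor Bcl6 1.67 and 0.4 in L84, against -0.634, -0.341 and -0.729 in LC (adjusted p = 0.349). The mitophagy kinase Pink1 scored 1.9 and -0.156 in L84, against -1.39, -0.488 and -0.678 in LC (adjusted p = 0.426), and the cell cycle inhibitor Cdkn1b -0.207 and -1.25 in L84, against -0.0509, 0.181 and 0.0544 in LC (adjusted p = 0.561). These targets lay on either side of the controls, without overlap and without a call.

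The insulin-like growth factor genes held the uncalled gene Igfbp3, a binding protein, close to the threshold at 1.51 and 0.654 in L84, against -1.34, -1.11 and -1.14 in LC, a difference of 2.28 ± 0.27 (SE, adjusted p = 0.0604). Irs1, which couples the receptors to PI3K, scored 1.79 and 1.04 in L84, against 0.0174, -1.27 and -0.723 in LC (adjusted p = 0.295), and the receptor Igf2r -0.408 and -1.04 in L84, against 1.22, 0.192 and -0.12 in LC (adjusted p = 0.474). Of 13 genes of this list 0 were called (3 unadjusted), and the median difference was 0.113.

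Pigment genes, expressed by the melanocytes of the follicle, were low on both arrays. Of 18 melanocyte genes 2 fell and 0 rose, 12 lay lower without overlap, and the median difference was -1.59. Tyrp1, a melanin synthesis enzyme with 3 probe sets that all lay below the controls, scored -1.03 and -0.951 in L84, against 0.74, 1.01 and 1.02 in LC, a difference of -1.91 ± 0.123 (SE, adjusted p = 0.0108). Dct, the dopachrome tautomerase, scored -0.484 and -0.48 in L84, against 0.707, 0.932 and 0.976 in LC, a difference of -1.35 ± 0.133 (SE, adjusted p = 0.035), with nearly equal L84 arrays. Tyr, the first enzyme of the pathway, scored -1.63 and -0.631 in L84, against 0.462, 0.806 and 1.3 in LC (adjusted p = 0.195), and the receptor Kit -0.0166 and 0.142 in L84, against -0.83, 0.631 and 1.1 in LC, with overlap. The calls numbered 0 without LC 2, LC 3, L84 1, LA 1 or LA 2, 1 without LC 1 or L84 2. Melanocyte list means were -0.82 and -0.385 on the L84 arrays, against 0.526, 0.763 and 0.794 on the LC arrays, and what share of the pigment difference goes with that of the hair shaft genes was not tested.

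Iron and heme genes supplied 3 of the largest falls. Hp, haptoglobin, which binds free hemoglobin, scored -1.76 and -1.56 in L84, against 0.73, 0.84 and 0.796 in LC, a difference of -2.45 ± 0.206 (SE, adjusted p = 0.0241). Cybrd1, a ferric reductase of cell membranes, scored -1.24 and -0.962 in L84, against 1.24, 0.996 and 1.49 in LC, a difference of -2.34 ± 0.176 (SE, adjusted p = 0.0168). Slc25a37, mitoferrin, the mitochondrial iron importer, scored -0.841 and -1.2 in L84, against 0.906, 1.31 and 1.29 in LC, a difference of -2.19 ± 0.19 (SE, adjusted p = 0.0254). In all 3 both L84 arrays lay below 0 and all controls above it, whereas the median difference of the 15 genes was -0.675. The 3 calls numbered 0 without LC 2, LC 3, L60 1, L60 2 or L84 1, 1 without LC 1, L84 2, LA 1 or LA 2.

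Chac1, a glutathione-degrading enzyme of the amino acid stress response, scored -1.15 and -0.909 in L84, against 1.37, 1.27 and 1.2 in LC, a difference of -2.31 ± 0.104 (SE, adjusted p = 0.00388), and was called in 8 of 9 fits without 1 array. Of 20 genes of that response 1 fell and 0 rose, with a median difference of -0.529. The amino acid transporter Slc7a5 scored -0.55 and -1.09 in L84, against 1.11, 1.24 and 0.847 in LC (adjusted p = 0.195) and the stress protein Nupr1 1.59 and 0.155 in L84, against -1.19, -1.15 and -0.931 in LC (adjusted p = 0.203), on opposite sides of the controls.

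Gjb2 and Gja1, which form gap junctions, were both called lower. Gjb2, connexin 26, scored -0.855 and -0.9 in L84, against 0.775, 1.01 and 0.879 in LC, a difference of -1.77 ± 0.102 (SE, adjusted p = 0.00848). Gja1, connexin 43, scored -0.949 and -0.776 in L84, against 0.737, 1.15 and 0.899 in LC as the mean of 6 probe sets, a difference of -1.79 ± 0.173 (SE, adjusted p = 0.0344). Gja1 and the others of this paragraph are in no list except Gjb2, and those outside the 20 largest falls were named after their values were seen, to complete the calls. Odc1, the first enzyme of polyamine synthesis, scored -0.741 and -0.757 in L84, against 0.939, 1.02 and 0.988 in LC, a difference of -1.73 ± 0.149 (SE, adjusted p = 0.0254). Prickle1, a planar cell polarity protein, scored -1.18 and -0.869 in L84, against 1.17, 1.32 and 0.889 in LC, and the lens crystallin gene Cryba4 -1.16 and -0.838 in L84, against 0.847, 1.26 and 1.36 in LC.

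The remaining calls below LC were Map3k6, Psors1c2, Lypla2, Crym, Matn4, Capn12, Fhod3, Lpgat1, Ahcy and Lap3. Crym, a crystallin that binds thyroid hormone, scored -0.897 and -1.09 in L84, against 0.693, 1.22 and 1.23 in LC, and the protease gene Capn12 -0.783 and -0.609 in L84, against 1.1, 1.4 and 1.28 in LC. Psors1c2 scored -0.782 and -1.09 in L84, against 1.3, 1.06 and 1.1 in LC, a difference of -2.09 ± 0.126 (SE, adjusted p = 0.00904). Lpgat1, an acyltransferase of phospholipids, scored -0.78 and -0.979 in L84, against 0.743, 0.71 and 0.604 in LC, a difference of -1.57 ± 0.0902 (SE, adjusted p = 0.00848), with its groups tighter than those of Crym. The other 6 differed by -2.09 (Map3k6), -2.04 (Lypla2), -2.04 (Matn4), -1.89 (Fhod3), -1.46 (Ahcy) and -1.45 (Lap3), with adjusted p from 0.0221 to 0.0409.

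The chromosomes of the 50 lower genes (0.403% of all genes) are given as counts, with no test. Chromosome 11, with the type I keratins and many Krtap genes, held 13 of the 50 among its 1041 measured genes, and chromosome 15, with the type II keratins and Hoxc13, held 6 among 495. Chromosome 2 also held 6, among 965. Of the 20 higher genes, 1 lay on chromosome 11, 2 on chromosome 15 and 2 on chromosome 2.

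Krt5 and Krt15 rose in L84. Krt5, the type II keratin of basal cells, scored 1.1 and 0.892 in L84, against -1.64, -0.88 and -1.13 in LC, a difference of 2.21 ± 0.244 (SE, adjusted p = 0.0487). Its type I partner Krt14 scored 1.17 and 0.677 in L84, against -1.61, -0.0624 and -0.254 in LC, a difference of 1.57 ± 0.518 (SE, adjusted p = 0.351), with LC 1 the lowest control in both genes. Of 14 basal keratinocyte genes 1 rose and 0 fell, 9 were higher and 3 lower without overlap, and the median difference was 1.55. Lama3, a laminin chain of the basement membrane, scored 1.96 and 0.538 in L84, against -0.897, -1.08 and -1.25 in LC (adjusted p = 0.163), and Col7a1, of the anchoring fibrils, 1.73 and 0.586 in L84, against -0.17, -1.47 and -1.37 in LC (adjusted p = 0.24). Basal list means were 0.95 and 0.221 on the L84 arrays, against -0.568, -0.366 and -0.384 on the LC arrays, with L84 1 well above L84 2.

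Krt15, a keratin of basal and bulge cells, scored 1.27 and 0.991 in L84, against -0.997, -1.27 and -1.18 in LC, a difference of 2.28 ± 0.179 (SE, adjusted p = 0.0193). Gas1, a co-receptor for hedgehog, scored 1.34 and 1.23 in L84, against -0.496, -0.869 and -0.741 in LC, a difference of 1.99 ± 0.178 (SE, adjusted p = 0.0282). They were the 2 calls in 15 bulge genes, of which 7 lay higher and 2 lower without overlap (median difference 0.759). Cd34, a bulge surface marker, scored -0.153 and 0.911 in L84, against -1.01, -0.831 and -1.06 in LC (adjusted p = 0.433), and the bulge factor Lhx2 1.04 and 0.1 in L84, against 0.0483, -0.565 and 0.0711 in LC (adjusted p = 0.662). The Krt15 call held in 3 of 9 fits that left out 1 array, that of Gas1 in 0 of 9 and that of Krt5 in 1 of 9.

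In the differentiating epidermis, Krt77 rose: this keratin, found around sweat ducts and in suprabasal cells, scored 0.772 and 0.597 in L84, against -1.34, -1.15 and -1.13 in LC, a difference of 1.89 ± 0.117 (SE, adjusted p = 0.00983). The suprabasal keratins Krt1 and Krt10 were not called, at 0.982 and 0.904 in L84, against -0.881, -1.44 and -1.31 in LC for Krt1 (adjusted p = 0.101) and 1.02 and 0.517 in L84, against -1.01, -1.51 and -1.26 in LC for Krt10 (adjusted p = 0.0856). Calml3, a calmodulin-like protein of keratinocytes, scored 1.88 and 1.3 in L84, against -0.579, -0.515 and -0.528 in LC (adjusted p = 0.14). All of these lay above the controls on both arrays. Among 44 genes of this list 1 rose and 0 fell, 10 were higher and 11 lower without overlap, and the median difference was 0.653. The desmosome genes held 0 calls of 10 (1 unadjusted) and 3 lower genes without overlap. Dsc2 scored -0.444 and -0.547 in L84, against 0.953, 1.35 and 1.2 in LC (adjusted p = 0.162), Pkp2 -0.443 and -0.95 in L84, against 0.00242, 0.207 and 0.392 in LC (adjusted p = 0.466) and Dsg2 -0.245 and -0.938 in L84, against 0.0993, 0.609 and 0.282 in LC (adjusted p = 0.569).

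Il33, which is released from damaged epithelium, had the largest rise, at 1.71 and 0.958 in L84, against -0.921, -1.18 and -1.3 in LC, a difference of 2.47 ± 0.256 (SE, adjusted p = 0.0409). The list of stress keratins, alarmins and connexins held this rise and the fall of Gjb2 among 14 genes, with a median difference of -0.234. In the interleukin 1 family and inflammatory caspases, Il33 was 1 call in 16 genes, with Il18 at 1.54 and 0.111 in L84, against -0.447, -1.05 and -1.29 in LC (adjusted p = 0.336) and Pycard, the inflammasome adaptor, at 1.37 and 0.327 in L84, against -0.338, -1.36 and -0.298 in LC (adjusted p = 0.342). The family lay above the controls on both arrays in its mean (0.0245 and 0.286 on the L84 arrays, against -0.44, -0.599 and -0.521 on the LC arrays).

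Antigen presentation genes of MHC class I rose in 2 of 16 cases, 0 fell, and 10 lay higher without overlap (median difference 1.04). B2m, the light chain of every class I molecule, scored 0.691 and 0.993 in L84, against -1.25, -0.847 and -1.01 in LC, a difference of 1.87 ± 0.166 (SE, adjusted p = 0.0275). H2-K1, a heavy chain, scored 0.672 and 0.55 in L84, against -1.08, -0.78 and -0.757 in LC, a difference of 1.48 ± 0.121 (SE, adjusted p = 0.0221). All 4 probe sets of H2-K1 have names ending in _x_at, the suffix of sets that can bind several transcripts, and class I genes are close in sequence. The calls held in 0 of 9 and 1 of 9 fits without 1 array. The immunoproteasome subunits Psmb9, Psmb8 and Psmb10, which make class I peptides, scored 1.38 and 0.439 in L84, against -0.899, -1.1 and -1.1 in LC for Psmb9, 1.53 and 0.174 in L84, against -0.803, -1.08 and -0.979 in LC for Psmb8 and 0.928 and 0.469 in L84, against -0.775, -1.01 and -0.694 in LC for Psmb10, and were not called.

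Irf9, which joins STAT proteins in the type I interferon signal, rose at 0.691 and 1.16 in L84, against -1.05, -0.964 and -1.23 in LC, a difference of 2.01 ± 0.193 (SE, adjusted p = 0.0344). It was 1 call in 25 interferon response genes, of which 13 lay higher and 1 lower without overlap (median difference 1.12). Oasl2 scored 1.28 and 1.3 in L84, against -0.169, -1.25 and -0.642 in LC (adjusted p = 0.382), and the RNA sensor gene Ifih1 1.94 and 0.107 in L84, against -0.15, -1.06 and -1.62 in LC (adjusted p = 0.382). Both L84 arrays of these genes lay above the controls, and the call for Irf9 held in 0 of 9 fits without 1 array. MHC class II presentation had 0 calls in 9 genes (5 unadjusted) and 7 higher without overlap (median difference 0.925), among them H2-Ea, H2-Aa and the invariant chain Cd74, which differed by 1.24, 1.1 and 1.03 (adjusted p = 0.195, 0.342 and 0.301).

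Other genes that rose belong to no single group. Nt5c2, a cytosolic nucleotidase, scored 0.965 and 0.968 in L84, against -0.586, -0.556 and -0.679 in LC, a difference of 1.57 ± 0.0401 (SE, adjusted p = 0.000718). Its 3 probe sets each lay further apart, at 0.29, 2.27 and 0.337 on L84 1 and 0.678, -0.0365 and 2.26 on L84 2, and none was called alone. Plcg2, a phospholipase of immune receptor signals, scored 1.34 and 1.39 in L84, against -0.729, -1.01 and -0.563 in LC, a difference of 2.14 ± 0.159 (SE, adjusted p = 0.0168). Adam8, a membrane protease, scored 0.985 and 1.26 in L84, against -1.39, -1.3 and -1.06 in LC, a difference of 2.37 ± 0.159 (SE, adjusted p = 0.0127). The transporter Slc6a20a scored 1.51 and 1.83 in L84, against -0.518, -1.02 and -0.809 in LC, and the aldo-keto reductase Akr1b8, called at adjusted p = 0.0498, scored 1.42 and 2.01 in L84, against -0.41, -0.73 and -0.41 in LC.

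Stat6, which carries interleukin 4 and 13 signals, scored 0.344 and 0.423 in L84, against -0.745, -0.738 and -0.552 in LC, a difference of 1.06 ± 0.0763 (SE, adjusted p = 0.0158). Its 2 probe sets parted, at -1.18 and 1.87 on L84 1 and 1.48 and -0.632 on L84 2, and each overlapped the LC arrays. S100a4 scored 0.69 and 0.494 in L84, against -0.943, -1.34 and -1.37 in LC, and Hsd3b7, an enzyme of bile acid synthesis, 0.389 and 0.311 in L84, against -1.37, -1.02 and -1.07 in LC. The retinoid receptor gene Rxrg scored 1.07 and 0.992 in L84, against -0.583, -0.583 and -0.583 in LC, with equal values on all LC arrays. Trak1, Itm2b and Fbxw2 differed by 1.25, 0.892 and 0.878, with Fbxw2 the smallest number among the higher calls. All are means of several probe sets that were not rescaled, so these sizes cannot be ranked against genes of 1 probe set. The 2 probe sets of Trak1 parted too, at 1.63 and -0.211 on L84 1 and -0.464 and 2.04 on L84 2, and each overlapped the LC arrays. Fbxw2 was the mean of 6 probe sets, and its difference was 1.53 with the first of them alone, while the 3 probe sets of Itm2b differed in sign. No probe set of Stat6, Trak1, Itm2b or Fbxw2 was called alone. Of 32 detoxification genes Akr1b8 alone was called, with Gsta2 at 1.9 and 0.601 in L84, against -0.25, -1.02 and -1.19 in LC (adjusted p = 0.301) and Nqo1 at 2.16 and 0.725 in L84, against -0.0302, -0.611 and -1.16 in LC (adjusted p = 0.295).

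Genes of dividing cells were not called in limma's test, in 0 of 25 DNA replication (6 unadjusted), 0 of 27 mitosis (10 unadjusted) and 0 of 20 G1 genes (3 unadjusted). Mitosis genes had 15 members lower and 1 higher without overlap and a median difference of -0.887, but the L84 arrays were unlike. The mitosis mean was -0.918 and 0.0865 on the L84 arrays, against 0.49, 0.403 and 0.376 on the LC arrays, and that of DNA replication -0.542 and -0.00663 on the L84 arrays, against 0.0957, 0.278 and 0.268 on the LC arrays. Mki67, the proliferation antigen, scored -0.5 and 0.0214 in L84, against 0.74, 0.519 and 0.454 in LC (adjusted p = 0.229), Plk1 -1.4 and -0.281 in L84, against 0.438, 0.843 and 0.924 in LC (adjusted p = 0.295) and Bub1b -1.58 and 0.035 in L84, against 0.597, 0.727 and 0.783 in LC (adjusted p = 0.405). Ttk, a spindle checkpoint kinase, was the higher member, at 1.94 and 0.28 in L84, against 0.0697, -1.03 and -1.4 in LC (adjusted p = 0.406).

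Fen1, Tk1 and Gins1, which serve DNA synthesis, differed by -1.27, -1.26 and -1.26. The cyclin Ccnd1 scored -1.38 and -0.444 in L84, against 0.884, 0.444 and 0.502 in LC (adjusted p = 0.203), and Ccnd2 -0.448 and -0.941 in L84, against 0.00146, 0.505 and 0.733 in LC (adjusted p = 0.362), while their kinase Cdk4 differed by -1.03. L84 1 was the lower array for replication, mitosis and Ccnd1, and L84 2 for Ccnd2.

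Signalling pathways of the follicle are described beside the shares over all genes. There 0.565% were called, so few calls in lists of this size do not mark a lack. Over all genes 14.7% lay lower and 13.8% higher without overlap. Of 48 Wnt pathway genes 0 were called (9 unadjusted), 14 lay lower and 6 higher without overlap, and the median difference was -0.414. The feedback inhibitor Nkd1 scored -2.32 and -0.685 in L84, against 0.662, 0.423 and 0.722 in LC (adjusted p = 0.252), its relative Nkd2 -1.54 and -0.741 in L84, against 0.185, 1.14 and 1.13 in LC (adjusted p = 0.197) and the secreted inhibitor Sfrp5 -1.51 and -1.68 in L84, against 1.45, 0.188 and 0.129 in LC (adjusted p = 0.169). Wnt10b, a ligand of early follicle growth, scored -0.141 and -1.29 in L84, against -1.49, 0.884 and 0.696 in LC, with overlap. Of 21 Notch genes 0 were called (4 unadjusted), with 5 lower and 1 higher without overlap (median difference -0.511). The ligand Jag1 differed by -1.5 ± 0.545 and the target Heyl by -2.08 ± 0.409, and the target Hey1 by 1.27 ± 0.826 (SE).

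Gas1 was the 1 call in 13 hedgehog genes. The ligand Shh scored -1.14 and -0.54 in L84, against -0.131, 0.278 and 0.132 in LC (adjusted p = 0.751), its receptor Ptch1 -0.975 and 0.0892 in L84, against 0.121, 1.24 and 0.424 in LC (adjusted p = 0.47), the factor Gli3 -2.15 and -0.559 in L84, against -0.00875, 1.17 and 1.04 in LC (adjusted p = 0.301) and the inhibitor Sufu -0.798 and -0.941 in L84, against 0.458, 0.404 and 1.64 in LC (adjusted p = 0.252). All 4 lay below the controls without a call, opposite to Gas1. In the ectodysplasin pathway, whose loss impairs skin appendages, 0 of 5 genes were called (1 unadjusted). The receptor Edar scored -0.195 and -0.0448 in L84, against 0.787, -0.0448 and -0.176 in LC, with overlap, and Tnfrsf19 -1.42 and -0.438 in L84, against 0.252, 0.671 and 0.319 in LC (adjusted p = 0.289). Of 31 Hox genes only Hoxc13 was called, with Hoxb2 at -1.87 ± 0.399 and Hoxc4 at 2.21 ± 0.533 from LC (SE), and of 10 dermal papilla genes 0 were called (0 unadjusted), with Crabp1 at 1.63 ± 0.671, Fgf10 at 0.944 ± 0.794 and Spon1 at -1.54 ± 0.729 (SE).

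Markers of other cell types in whole skin differed between the L84 arrays. Skeletal muscle genes, with 0 of 33 called (11 unadjusted) and 19 higher without overlap (median difference 1.21), had list means of 1.36 and 0.107 on the L84 arrays, against -0.318, -0.4 and -0.413 on the LC arrays. Ttn, the giant sarcomere protein, scored 1.7 and 0.34 in L84, against -0.982, -0.993 and -0.92 in LC (adjusted p = 0.195), Myot 1.93 and 0.25 in L84, against -0.91, -0.737 and -0.703 in LC (adjusted p = 0.362) and the light chain Mylpf 1.38 and 1.17 in L84, against 0.102, -0.76 and -0.856 in LC (adjusted p = 0.289). The skeletal muscle mean was thus highest on L84 1. Smooth muscle means were -1.09 and -0.029 on the L84 arrays, against -0.129, -0.16 and -0.0434 on the LC arrays, with 0 of 13 called (4 unadjusted) and 4 lower without overlap. Tagln, an actin-binding protein of smooth muscle, scored -1.55 and -1.41 in L84, against 0.515, 0.0849 and 0.0849 in LC, a difference of -1.71 ± 0.196 (SE, adjusted p = 0.0555), just short of the threshold, with Smtn and Actg2 at -2.18 ± 0.446 and -1.67 ± 0.414 (SE).

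Fat markers showed 0 of 17 calls (5 unadjusted) and 6 lower without overlap (median difference -0.55). Lpl, lipoprotein lipase, scored -1.28 and -0.935 in L84, against 1.11, 1.26 and 0.568 in LC (adjusted p = 0.191), the hormone-sensitive lipase Lipe -1.58 and -1.12 in L84, against -0.483, 1.2 and 1.39 in LC (adjusted p = 0.34) and the fatty acid carrier Cd36 -0.791 and -1.18 in L84, against 1.01, 0.52 and 0.584 in LC (adjusted p = 0.37). Endothelial genes had 0 of 21 calls (1 unadjusted) and 2 in each direction without overlap, with Icam2 at -2.04 ± 0.598, Lyve1 at 1.01 ± 0.851 and Prox1 at 0.717 ± 0.493 (SE). Nerve genes had 0 of 10 calls (1 unadjusted), with Mbp, of myelin, at 0.312 and 0.589 in L84, against -0.86, -1.06 and -0.795 in LC (adjusted p = 0.0569) as the mean of 8 probe sets that differed in sign. Blood genes had 0 of 7 calls (1 unadjusted), with Hbb-b2, Slc4a1 and Hba-a2 at -1.63 ± 0.673, -1.58 ± 0.322 and -0.246 ± 0.737 (SE). The part of muscle, fat, vessel, nerve or blood content in the other differences was not tested.

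Collagens and dermal matrix genes had 0 calls in 36 (4 unadjusted) and 24 (3 unadjusted) genes, and the L84 arrays lay on opposite sides of the controls. Collagen means were -0.74 and 0.489 on the L84 arrays, against 0.055, -0.291 and -0.162 on the LC arrays, and matrix means -1.03 and 0.598 on the L84 arrays, against -0.287, -0.469 and -0.31 on the LC arrays. Postn, periostin, was high on both arrays, at 1.12 and 1.13 in L84, against -0.682, -1.27 and -1.45 in LC (adjusted p = 0.0967), and Aspn differed by 1.09 ± 0.56, while Tnc, tenascin C, was low on both, at -0.936 and -1.2 in L84, against 0.946, 0.731 and 0.791 in LC (adjusted p = 0.0804). Of the collagens without overlap, Col17a1 of the hemidesmosome differed by 2.16 ± 0.424 and Col11a2 by -1.78 ± 0.637 (SE).

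Macrophage and dendritic cell genes had 0 of 23 calls (2 unadjusted) and list means of -0.937 and 0.553 on the L84 arrays, against -0.592, -0.519 and -0.479 on the LC arrays, again on opposite sides of the controls. Itgax, the integrin of dendritic cells, scored 1.31 and 0.863 in L84, against -1.5, -0.91 and -1 in LC (adjusted p = 0.118), and Cd207, langerin, 0.198 and 0.085 in L84, against -0.777, -1.12 and -0.746 in LC (adjusted p = 0.0695), both high on either array. T and B cell genes had 0 of 20 calls (2 unadjusted), with 5 higher and 1 lower without overlap (median difference 0.683). Il7r, Ptprc and Cd3e differed by 1.88 ± 0.388, 1.38 ± 0.638 and 1.19 ± 0.458 (SE), while 7 members had differences below 0. The list means were -0.317 and 0.409 on the L84 arrays, against -0.273, -0.657 and -0.429 on the LC arrays, so L84 1 lay within the LC range. Mast cell genes had 0 of 10 calls (3 unadjusted) and 5 higher without overlap (median difference 1). The mast cell proteases Cma1 and Mcpt4 scored 1.9 and 0.651 in L84, against -0.248, -1.61 and -1.01 in LC for Cma1 and 1.58 and 1.25 in L84, against -1.3, -0.774 and -0.246 in LC for Mcpt4, with Cpa3 at 1.02 and 0.837 in L84, against -0.109, -1.34 and -1.64 in LC. Chemokine genes had 0 of 51 calls (8 unadjusted), with Cxcl10 at 1.96 ± 0.671, the receptor Cxcr4 at 1.86 ± 0.594 and Cxcl12 at -1.83 ± 0.671 (SE). The part of immune cell number in the rises of B2m, H2-K1, Irf9 and Plcg2 was not tested.

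Lipid genes were high on L84 1. Sebaceous genes had 0 of 8 calls (5 unadjusted), 5 higher without overlap and means of 1.27 and 0.397 on the L84 arrays, against -0.166, -0.627 and -0.505 on the LC arrays, and cholesterol and fatty acid synthesis 0 of 24 (4 unadjusted), 7 higher and means of 1.25 and -0.168 on the L84 arrays, against -0.058, -0.0574 and -0.074 on the LC arrays. Scd3, a desaturase of sebocytes, scored 2.05 and 0.79 in L84, against -0.83, -0.956 and -0.814 in LC (adjusted p = 0.14), the lipid droplet protein Plin2 2.24 and 0.567 in L84, against -0.358, -1.03 and -1.01 in LC (adjusted p = 0.259) and Cidea 2.02 and 0.296 in L84, against -0.54, -1.06 and -1.1 in LC (adjusted p = 0.277). The synthesis enzymes Acss2, Msmo1 and Fasn differed by 1.84 ± 0.556, 1.82 ± 0.568 and 1.62 ± 0.595 (SE).

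Genes that all cells use gave 0 calls in 48 cytosolic ribosomal proteins (11 unadjusted), 74 mitochondrial ribosomal proteins (11 unadjusted), 84 genes of oxidative phosphorylation (4 unadjusted), 38 proteasome subunits (3 unadjusted) and 12 immediate early genes (1 unadjusted). Cytosolic ribosomal proteins lay lower without overlap in 21 genes and higher in 2 (median difference -0.689), with Rpl7, Rpl22l1 and Rpl37 at -1.85 ± 0.395, -1.63 ± 0.444 and -1.59 ± 0.763 (SE). Oxidative phosphorylation means were 0.867 and -0.321 on the L84 arrays, against 0.0519, 0.33 and 0.354 on the LC arrays, and proteasome means 0.726 and -0.488 on the L84 arrays, against 0.0295, 0.398 and 0.465 on the LC arrays, so L84 1 and L84 2 stood on opposite sides of the controls. The oxidative genes Ndufaf7, Cox7a1 and Cox6a2 differed by 1.76, 1.65 and 1.6, and the mitochondrial ribosomal genes Mrpl40, Mrpl54 and Mrps2 by 1.88, -1.79 and -1.68. The immediate early genes Egr1 and Ier2 differed by -1.45 and -1.32. The 4 sex-linked transcripts had 0 calls (0 unadjusted).

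**Figure D2:**
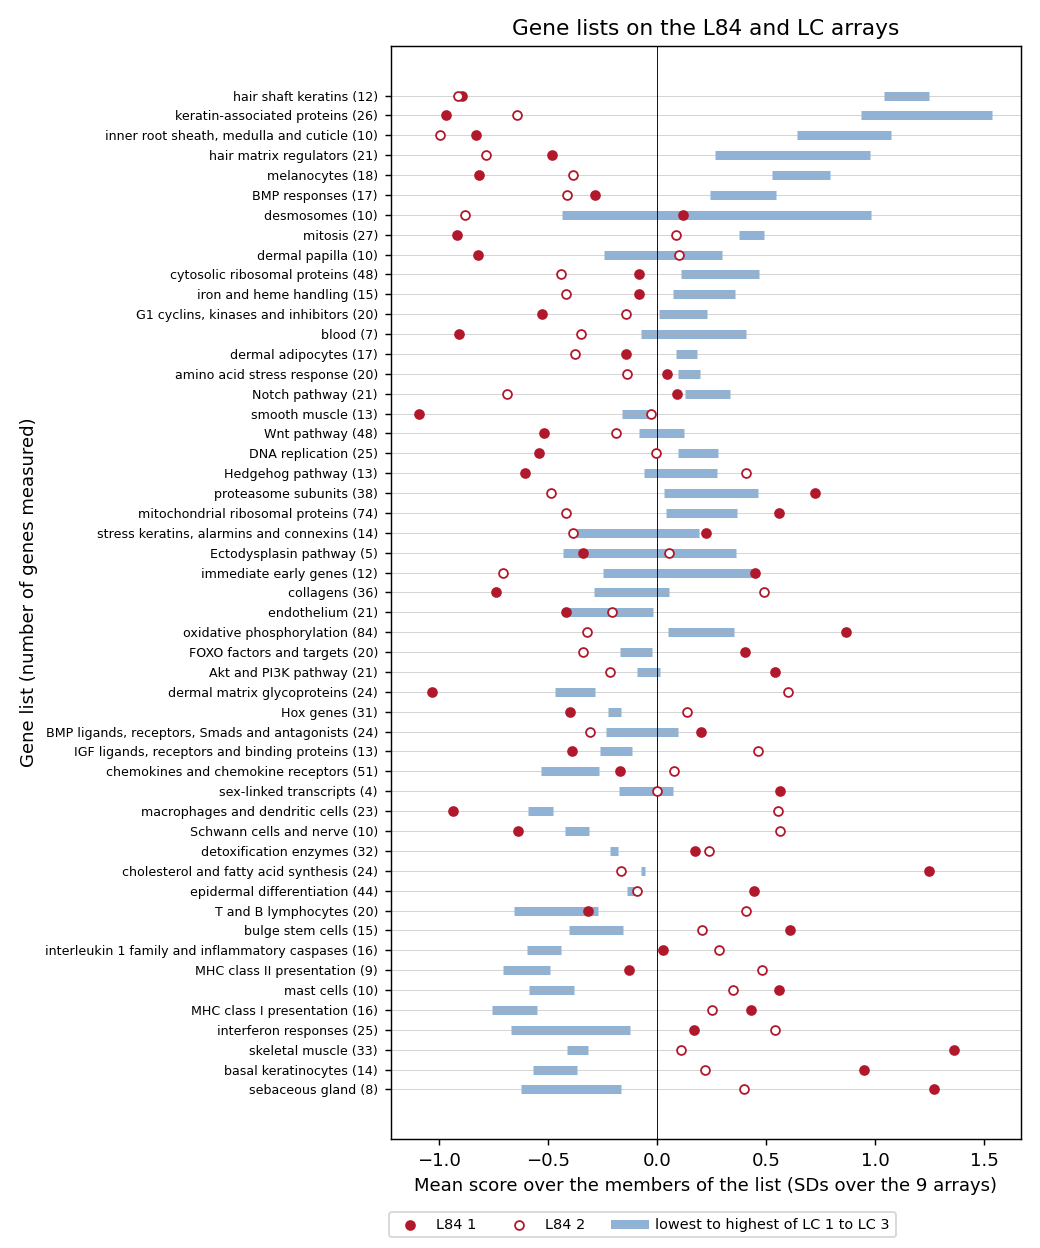
Mean score over the members of each of 51 gene lists (horizontal axis, SDs over the 9 arrays), with L84 1 as a filled circle, L84 2 as an open circle and the range of the 3 LC arrays as a bar, sorted by median difference. Hair shaft keratins stand at the top with both circles left of the bar, while collagens and oxidative phosphorylation have 1 circle on each side.

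The agreement of the L84 arrays was therefore examined directly. Over 12393 genes their scores correlated at r = -0.296, where the mean over all 36 pairs of arrays was -0.116, and the pairs of LC arrays correlated at 0.153, 0.103 and 0.604. The L60 arrays correlated at -0.0228 and the LA arrays at 0.229. These are correlations across genes, which are not independent replicates. Both L84 arrays lay above all controls in 1706 genes and below them in 1826, together 28.5%. They lay on opposite sides in 24.7% of genes, 1449 with L84 1 above and 1610 with L84 2 above. The median distance between the L84 arrays was 1.22 over all genes, against a median range of 0.79 over the 3 LC arrays. Among the called genes these were 0.187 and 0.265, but the test favours genes with close arrays, so that is a description.

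Of the 51 lists, the mean was above all controls on both L84 arrays in 11, below on both in 16, on opposite sides in 17 and within the LC range on at least 1 array in 7. Hair, melanocyte, BMP response and cell cycle lists were among the 16. Basal, sebaceous, skeletal muscle, mast cell, MHC, interferon and bulge lists were among the 11.

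Single genes showed how far the arrays could part. Prkcq, a kinase of T cell signals, scored 2.03 on L84 1 and -1.83 on L84 2, with LC between -0.104 and 0.156. Pik3c3 (1.62 and -2.21), Hsd17b2 (1.82 and -2.01), Lin37 (1.6 and -2.16) and Tmem159 (2.14 and -1.61) parted the same way. St3gal1 (-2.19 and 1.69), Spon2 (-1.54 and 2.26), Kif12 (-1.91 and 1.89), Rnf138rt1 (-2.29 and 1.48) and C4bp (-2.35 and 1.42) parted the opposite way. Each of these 10 genes has 1 probe set, and its mean over L84 says little of either pool.

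**Figure D3:**
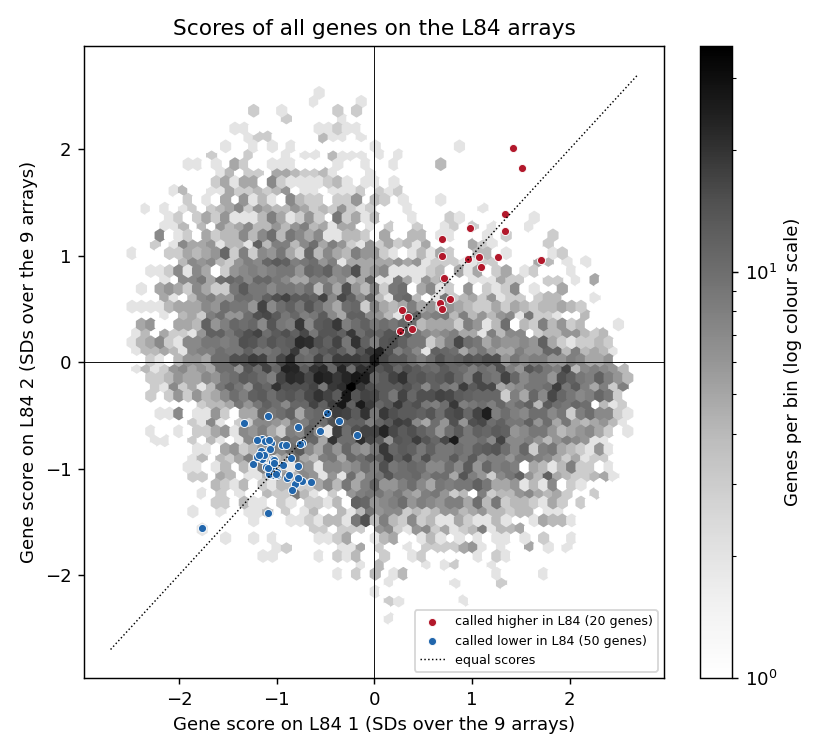
Score of each gene on L84 1 (horizontal) and L84 2 (vertical), both in SDs over the 9 arrays, with the number of genes per bin in grey and the 20 higher and 50 lower calls as coloured points. The calls lie near the line of equal scores, while most genes (r = -0.296) do not follow it.

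List means were also compared in pairs of arrays, those above 0 in 18S (0.339 on L84 1 and 1.13 on LC 1, so not equal in it) and those below 0. L84 1 minus LC 1 gave -2.14 for hair shaft keratins, -2.5 for keratin-associated proteins, -1.47 for the inner root sheath list and -0.529 for BMP responses. The lists in the same order, on L84 2 less the average of LC 2 and LC 3, gave -1.98, -1.59, -2.06 and -0.899. Melanocyte genes gave -1.35 and -1.16, and MHC class I genes 1.06 and 0.902. Collagens gave -0.795 and 0.716, with opposite signs. Each such value rests on single pools and has no test. Without the arrays high in 18S, which leaves 1 L84 array, the median difference of the hair shaft keratins was -2.06 and that of the keratin-associated proteins -1.76, but 0 members of either list were called. The part of RNA quality in these differences was not tested.

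Set against the other lines, L84 differed from L60 in 14 genes (0.113%), 2 higher (0.0161%) and 12 lower (0.0968%). Most of the lower ones were hair genes. Krt25 scored -1.11 and -0.981 in L84, against 0.811 and 0.716 in L60, a difference of -1.81 ± 0.0575 (SE, adjusted p = 0.00376). Krt34 differed from L60 by -1.14 ± 0.0578, Tchh by -1.71 ± 0.0959 and S100a3 by -1.64 ± 0.0456 (SE). Tagln had the largest difference, at -1.55 and -1.41 in L84, against 1.21 and 1.32 in L60 (-2.74 ± 0.215, adjusted p = 0.0482). Plcg2 and Nt5c2 were higher in L84 than in L60. The 14 calls numbered 9 without L60 1 or L84 1, 5 without L60 2 and 15 without L84 2.

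**Figure D4:**
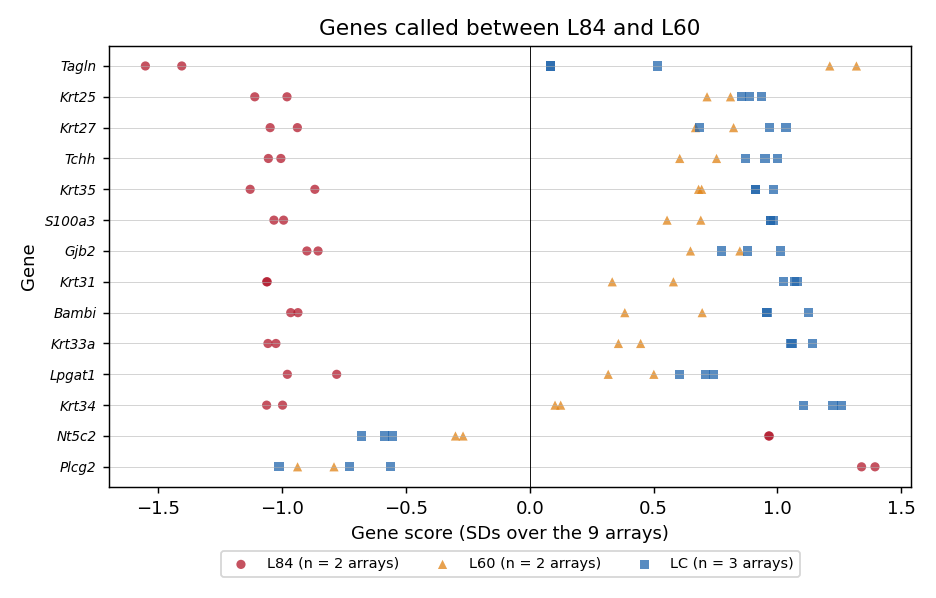
Scores (horizontal axis, SDs over the 9 arrays) of the 14 genes called between L84 and L60, with L84 as circles, L60 as triangles and LC as squares. In the 12 lower genes the L84 circles lie below 0 and the L60 triangles above 0.

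Against LA, 2 genes differed (0.0161%), 1 in each direction (0.00807%). Slc37a1, a sugar phosphate transporter, scored -0.598 and -0.5 in L84, against 1.85 and 1.51 in LA, a difference of -2.23 ± 0.11 (SE, adjusted p = 0.0341). D17H6S56E-5 scored 0.497 and 0.559 in L84, against -1.72 and -1.76 in LA (2.27 ± 0.0843, adjusted p = 0.0164). Neither was called against LC. No hair keratin was called between L84 and LA, where the difference of Krt25 was 0.0118 ± 0.0575 and that of Krt34 -0.154 ± 0.0578 (SE), which does not show that the lines are alike. The 2 calls numbered 131 without L84 2.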

How the data were processed

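Total RNA of whole skin was pooled by genotype and hybridised to 9 Affymetrix arrays. Per the submitters' processing notes the tool was RMA, its version not given. What was deposited is a score with mean 0 and SD 1 for every probe set (tested on the file, range -2.66 to 2.67). Whether they were logs before scaling is not stated, so depth, level and signal over background are unknown, and the number of arrays limits the precision. Of 22690 probe sets, 20380 name 1 gene, 691 several, 1555 none and 64 are controls. They gave 12393 genes, 4956 with several probe sets. Symbols come from the platform annotation, and promoters from RefSeq (GRCm38.p6).

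Group means were fitted to all 9 arrays with limma 3.58.1 in R 4.3.3 (5 residual degrees of freedom), without variance moderation, so that rescaling a gene leaves its p unchanged. With moderation 0 genes were called. Genes without residual spread had no test. The code was tested on simulated data. Members, lists and tests were chosen with earlier results of these data known, and the 51 lists are described, not tested. Named were the 20 largest rises and falls among calls without overlap, up to 4 called members of each list (with fewer than 2, up to 3 including uncalled ones without overlap), a fixed set of genes, the 5 genes in each direction that most parted the L84 arrays, and the 5 calls of largest size in each direction between lines. Alternatives were each array left out, the replicate number as a block, only L84 and LC, moderated variance, 1 or each probe set, array medians at 0, no tied genes and no arrays high in 18S, and, chosen after seeing the data, no arrays of widest spread.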

Additional observations from a re-analysis of the deposited data

Results flagged for a closer look

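These genes were called in limma's test of L84 directly against L60 or LA. Each value is L84 minus that line, not a difference from LC. Tagln, D17H6S56E-5 and Slc37a1 were not called against LC. Against L60, L84 was lower in Tagln (-2.74), Krt25 (-1.81), Krt27 (-1.74), Tchh (-1.71), Krt35 (-1.69), S100a3 (-1.64), Gjb2 (-1.63), Krt31 (-1.52), Bambi (-1.49), Krt33a (-1.44), Lpgat1 (-1.29) and Krt34 (-1.14). It was higher than L60 in Plcg2 (2.23) and Nt5c2 (1.25). Against LA, L84 was higher in D17H6S56E-5 (2.27) and lower in Slc37a1 (-2.23).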

How the results depend on the processing

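The 70 calls between L84 and LC (20 higher, 50 lower) ranged over the fits without 1 array from 5 to 129 (1 to 71 higher, 4 to 58 lower). They numbered 19 (4 higher, 15 lower) with only the L84 and LC arrays, 3 (2 higher, 1 lower) with the replicate number as a block, 1 (1 higher, 0 lower) without the arrays high in 18S, and 0 with moderated variance (982, 1628 and 1559 unadjusted p under 0.05 in limma's fits with the block, without those arrays and with moderation). With the first probe set per gene 60 were called (11 higher, 49 lower), and without the 2 arrays of widest scores, chosen after seeing the data, 50 (24 higher, 26 lower). Most calls without those 2 arrays were not among the 70, nor was the call without the arrays high in 18S. Of the 60 calls with the first probe set, 52 were among the 70. With each probe set alone, 64 of 20380 probe sets were called, a count of probe sets and not of genes. With array medians at 0, 65 genes were called, and without tied genes 69 of 9947. For L60 and LA below, only the loss of an L84 array or of an array of that line was counted. Against L60, calls ranged from 5 to 15 without 1 array (1 to 9 higher, 4 to 6 lower), and 0 passed with the block or moderation (794 and 859 unadjusted). Against LA they ranged from 2 to 131 (0 to 56 higher, 1 to 75 lower), with 1 (0 higher, 1 lower) under the block and 0 under moderation (1053 and 1557 unadjusted). Signs turned only among uncalled genes, and without overlap the loss of an array could not turn that of a called gene. Bmp2 was -0.731 without the 18S-high arrays and -0.947 without the widest, Edar 0.0656 and Foxo3 0.0496 without the 18S-high arrays, and Id2 0.637 and Kit 0.162 with the first probe set. Under the block Kit was 0.162, Nog 0.343 and Xist 0.0763. Without the widest arrays Nog was 0.279 and Xist 0.797, and Xist was 0.286 without the 18S-high arrays. Without 1 array the range was -0.947 to 1.97 for Bmp2, -0.24 to 0.0925 for Foxo3, -0.95 to 0.672 for Id2, -0.801 to 0.162 for Kit, -0.541 to 0.343 for Nog and -1.17 to 0.797 for Xist. The cause of these changes was not tested. The labels do not say what a replicate number shares. Deviations of same-numbered arrays correlated at -0.0833 to 0.345, not all above 0.1, so the numbers were not used as pairs. Yet Xist was lower on number 1 than on number 2 in all 4 groups. Probe sets for 18S were also higher on number 1 in LC (1.13), L60 (2.09) and L84 (0.339), though not in LA (-0.625 on LA 1, -0.584 on LA 2). Of the 3 calls with the number as a block, 2 were among the 70, and of the 19 with only the L84 and LC arrays 13 were. No filter on dim probes, background correction or other normalization was run, since scores carry no level.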
